A study of Mus musculus with 34 samples.

Results

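The regulatory T cell identity genes are 9 genes whose products mark, or help to set up, the suppressive CD4+ T cell lineage: Foxp3, Ikzf2, Ikzf4, Lrrc32, Nt5e, Entpd1, Gpr83, Itgae and Nrp1. They were taken by name as known marker genes, with earlier results of these data known, and they are 9 of the 19938 genes represented on the array. Each was measured by 1 probe set listed with that symbol alone. All 9 were among the 11413 genes bright enough to be tested. RNA came from splenocytes of female mice, 8 weeks old, of 5 inbred strains (129X1/SvJ, DBA/2J, C57BL/6J, Balb/c and A/J), and no label names an engineered allele. CD4+ cells were enriched on magnetic beads and examined after 4 h with PMA (phorbol ester, 10 ng per ml) and ionomycin (1 uM), called T1, and without these agents, called T0. Whether T0 cells spent the same hours in culture is not settled by the labels. A/J and C57BL/6J gave 4 arrays at T1 and 4 at T0, and Balb/c, DBA/2J and 129X1/SvJ gave 3 at each, 34 arrays in all, which the labels call biological replicates. Values are log2 intensities, so that a difference of 1 is a doubling, and levels of different genes cannot be set against each other because each probe set binds with its own strength.

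Regulatory T cells hold other lymphocytes in check and are defined by the forkhead transcription factor Foxp3. They carry the interleukin-2 receptor, a docking protein for latent TGF-beta and a pair of surface enzymes that turn extracellular ATP into adenosine, which damps effector T cells. PMA activates protein kinase C and ionomycin lets calcium into the cell, so together they reach the AP-1, NF-kappaB and NFAT factors without passing through the antigen receptor. Regulatory T cells are a minority of splenic CD4+ cells, and several of the 9 genes are also used by other cells. In bulk RNA such as this, fewer cells of a type and less RNA per cell cannot be told apart.

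Start-site sequences are shown for Foxp3, which defines the lineage, and for Nt5e and Entpd1, the ectoenzyme genes that both changed with stimulation. RefSeq windows of assembly GRCm38.p6, from 250 bases before to 50 bases after the annotated start, were found for 5 of the 9 members, in 7 windows. Ikzf2, Ikzf4, Lrrc32 and Itgae are named only. Capitals mark the NFAT core GGAAA and the Runx core TGTGGT on either strand, printed as they read on the strand shown, and no matches overlapped. The first window lies at chrX:7579426-7579725, the second at chr19:40659520-40659819 and the third at chr9:88327359-88327658, all on the plus strand.
Foxp3, start site 1: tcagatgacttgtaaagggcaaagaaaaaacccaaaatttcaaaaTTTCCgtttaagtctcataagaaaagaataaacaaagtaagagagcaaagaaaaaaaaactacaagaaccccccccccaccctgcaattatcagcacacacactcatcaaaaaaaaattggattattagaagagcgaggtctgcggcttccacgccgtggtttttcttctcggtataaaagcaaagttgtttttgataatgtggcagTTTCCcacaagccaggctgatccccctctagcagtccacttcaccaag
Entpd1, start site 2: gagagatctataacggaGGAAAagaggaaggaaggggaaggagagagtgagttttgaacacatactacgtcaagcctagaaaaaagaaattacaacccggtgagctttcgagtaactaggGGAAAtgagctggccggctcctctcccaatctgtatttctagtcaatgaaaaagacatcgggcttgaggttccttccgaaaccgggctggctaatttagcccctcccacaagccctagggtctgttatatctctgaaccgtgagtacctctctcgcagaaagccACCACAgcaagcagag
Nt5e: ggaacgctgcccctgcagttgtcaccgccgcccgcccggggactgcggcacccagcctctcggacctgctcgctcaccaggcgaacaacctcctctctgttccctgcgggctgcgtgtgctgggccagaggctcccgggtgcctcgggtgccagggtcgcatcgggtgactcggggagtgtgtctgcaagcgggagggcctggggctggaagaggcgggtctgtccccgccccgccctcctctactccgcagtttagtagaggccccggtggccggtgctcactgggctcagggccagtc
For each gene with several start sites, the window with the most matches is the one printed. This Foxp3 window held 2 NFAT cores, the second starting at base 2 of the transcript. Start site 2 of Foxp3 had 1 NFAT core and no Runx core. The printed Entpd1 window held 2 NFAT cores and 1 Runx core, and start site 1 of Entpd1 had none of either. The Nt5e window, 71.0% G and C, held no match to either. The core GGAAA is short and was present in 61.3% of 32851 promoter windows of the same length, and TGTGGT in 16.8% of them. The AP-1 letters TGANTCA (7.81% of windows) and the forkhead letters TGTTTAC (3.65%) were searched on both strands too and matched none of the 7 member windows. These matches describe letters and say nothing about whether a factor binds.

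The libraries carried CD4+ T cell RNA. Cd4, the co-receptor used for enrichment, ran from 7.91 to 9.15 at T1 and from 9.21 to 9.78 at T0, and the CD4 T cell list (7 of 8 genes measured) had array means of 8.73 to 9.59 at T1 and 9.28 to 9.75 at T0. RNA of other cells was present as well. The B cell list (9 of 10 genes) averaged 6.09 to 6.81 at T1 and 7.20 to 8.92 at T0, the CD8 list 5.68 to 6.48 at T1 and 6.30 to 7.25 at T0, the neutrophil list 4.43 to 5.92 at T1 and 5.08 to 7.60 at T0, and the plasmacytoid dendritic cell list 5.83 to 6.30 at T1 and 6.80 to 8.06 at T0. Genes of the B cell list did not move alike. Medians over arrays at T1 and T0 were 9.15 and 8.22 for Blk and 7.73 and 7.08 for Ebf1. The other tested genes of that list had lower medians at T1, such as Cd79b (6.16 and 10.07). The erythroid list (5 of 8 genes) differed most between strains, from 5.15 to 9.57 at T1 and from 4.94 to 9.69 at T0. Its median array in A/J was 9.22 at T1 and 9.02 at T0, against 5.27 and 5.21 in 129X1/SvJ. The part of these cells in the changes and strain differences described here was not tested. The library labelled Balb/c T1 replicate 2 stood apart, with a mean correlation of 0.948 to the rest of its group, against 0.965 and 0.969 for the other Balb/c T1 arrays and 0.976 or more for all arrays outside that group. It had less erythroid marker signal (6.36, against 9.02 and 9.41 on the other Balb/c T1 arrays). Its mean of the NK list was lower too (4.81, against 6.23 and 6.74). Only 2 of the 6 NK genes were tested, Eomes and Gzma, while Ncr1, Klrb1c, Klre1 and Klra8 were not bright enough. Values without this Balb/c array are given beside the results that it moves most.

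Averaged over strains, 5 of the 9 genes were lower after stimulation (limma, adjusted p under 0.05). Nt5e fell the most, followed by Ikzf4, Entpd1, Ikzf2 and Foxp3, whereas Lrrc32, Gpr83, Itgae and Nrp1 were not called. Over all 11413 genes 82.3% were called, 46.3% lower and 36% higher at T1, so the members' 5 of 9 lower is close to the background. The median change was -0.26 over the 9 members and -0.07 over all genes tested. Normalizing the arrays by quantiles once more moved the median of all genes to 0.02. Within A/J, 4 members were called, all lower, against a background of 56.6% called (36.3% lower, 20.3% higher). Balb/c had 6, all lower (background 54.7%, 34.1% lower and 20.6% higher), and C57BL/6J had 4, all lower (63.7%, 38.6% lower and 25.1% higher). DBA/2J had 4 lower and 1 higher (60%, 36.2% lower and 23.8% higher), and 129X1/SvJ had 4 lower (56.3%, 34.7% lower and 21.6% higher). The Balb/c count was 3 without the T1 array of replicate 2, and also 3 without the T0 array of replicate 2. Nt5e, Ikzf4 and Entpd1 were called lower in each of the 5 strains, as were 25.6% of all genes tested. The Entpd1 calls in A/J, Balb/c and C57BL/6J were lost after the further quantile normalization.

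**Figure D1:**
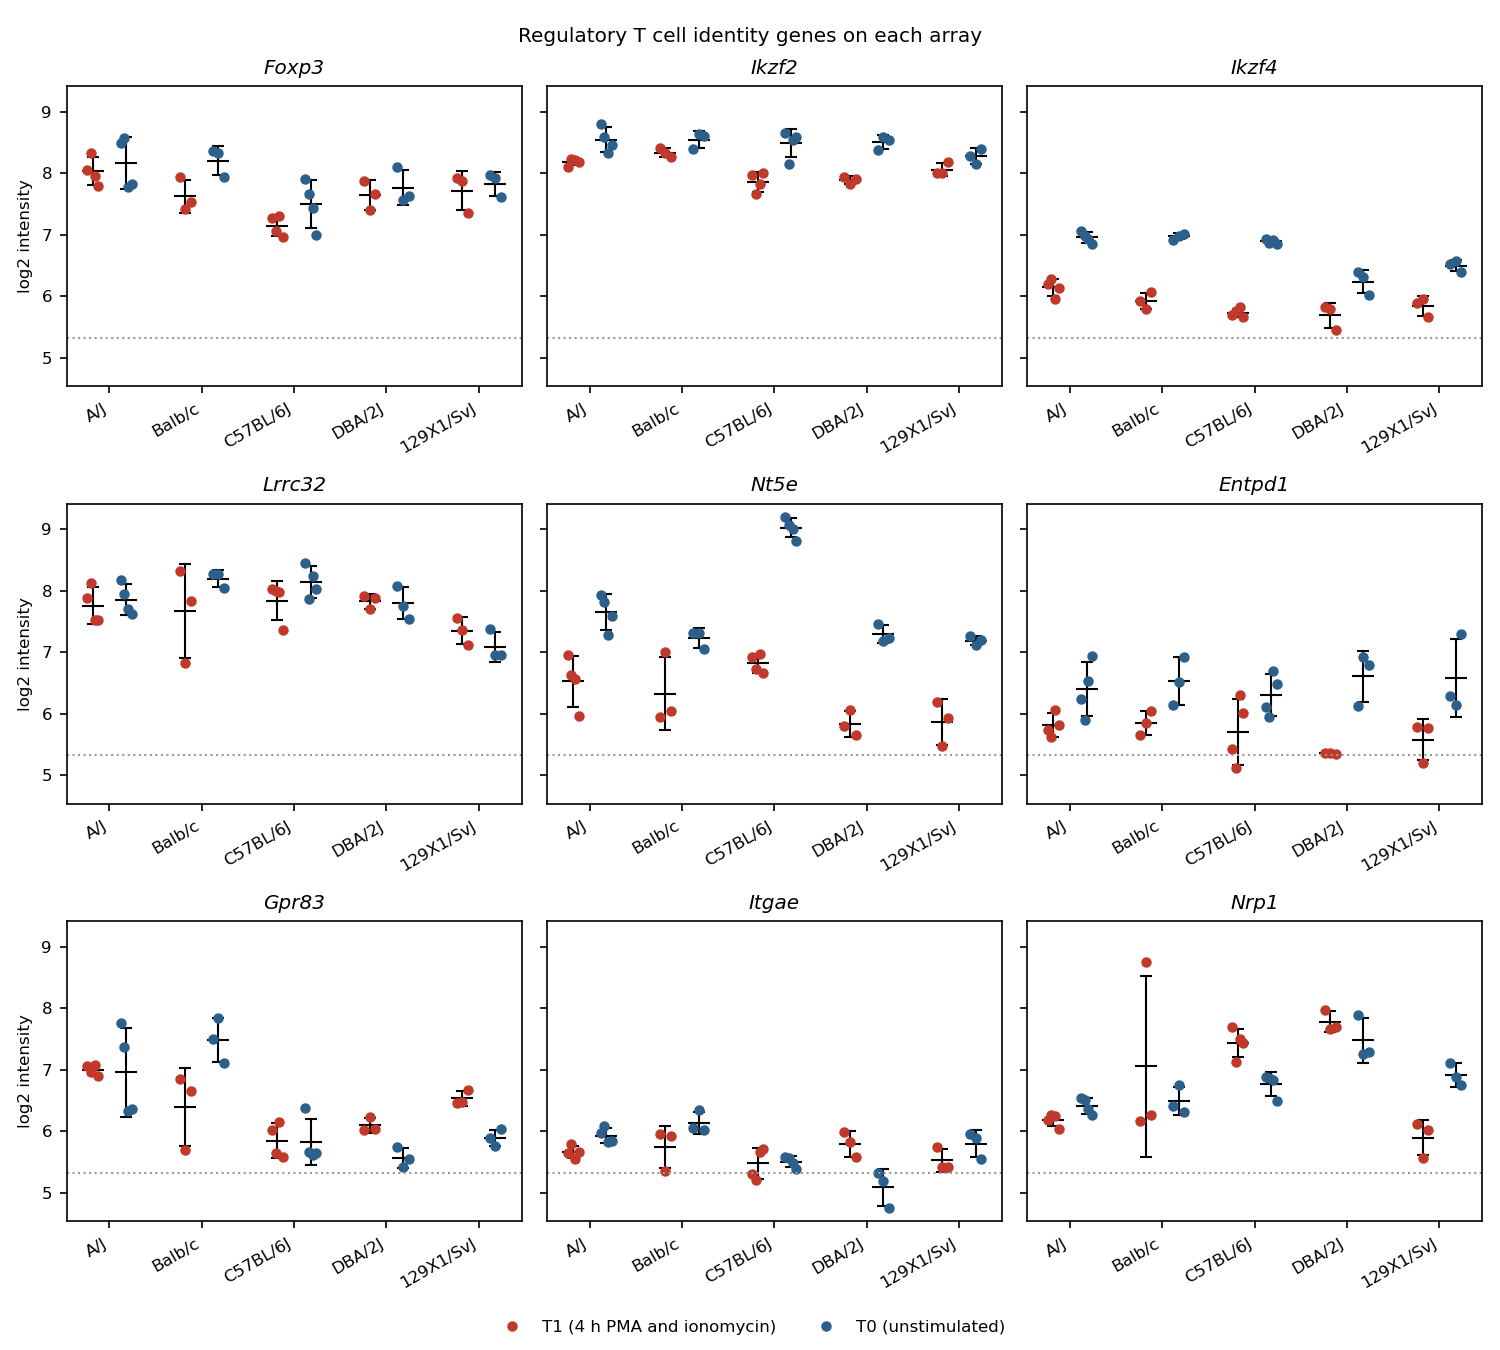
Log2 intensity of the 9 genes (vertical axis) on each of the 34 arrays by strain (horizontal axis), with T1 arrays left of T0 arrays, bars for mean ± SD over a group's 3 or 4 arrays, and a dotted line at 5.327, the limit a gene's highest group mean had to reach. Levels are to be read within a panel only; the T0 arrays of C57BL/6J stand above all others for Nt5e, and 1 Balb/c T1 array stands at 8.75 for Nrp1.

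Among the transcription factors, Foxp3, the lineage-defining forkhead protein, was only slightly lower after stimulation. Its mean over strains was 7.64 at T1 and 7.90 at T0, a difference of -0.26 ± 0.09 (SE; 1.2-fold lower; adjusted p = 0.013), and 13 of 17 T1 arrays lay below the T0 mean of their strain. In Balb/c the T1 arrays read 7.94, 7.42 and 7.54, against 8.36, 8.34 and 7.94 at T0. In the model without a replicate block this was the only strain in which Foxp3 was called, at -0.58 (adjusted p = 0.0274), and it was no longer called without any single one of 4 arrays (T1 replicates 2 and 4, T0 replicates 1 and 2), the adjusted p then reaching at most 0.114. In A/J the T1 arrays read 8.06, 8.34, 7.95 and 7.80, against 8.50, 8.57, 7.78 and 7.83 at T0. In C57BL/6J they read 7.28, 7.07, 7.30 and 6.96 at T1, against 7.91, 7.66, 7.43 and 7.0 at T0. In both strains the T1 arrays fell within or just below the spread at T0, and of the fits without 1 array only that without C57BL/6J T0 replicate 4 called C57BL/6J (-0.52, adjusted p = 0.0224). In DBA/2J the values were 7.87, 7.40 and 7.67 at T1, against 8.10, 7.56 and 7.64 at T0. In 129X1/SvJ they were 7.93, 7.88 and 7.35 at T1, against 7.97, 7.92 and 7.61 at T0. Groups overlapped in both of these strains too. The mean change was -0.12 (adjusted p = 0.186) after a further quantile normalization and -0.15 (adjusted p = 0.153) with the arrays numbered 3 to 5 alone. With any single array left out it ran from -0.29 to -0.22 and was called each time.

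Ikzf2 and Ikzf4, which encode Helios and Eos, are Ikaros family zinc finger factors of regulatory T cells, and Eos acts with Foxp3 in gene silencing. Ikzf4 averaged 5.87 at T1 and 6.72 at T0 (-0.85 ± 0.05; 1.80-fold lower; adjusted p = 7.97e-17), with all 17 T1 arrays below the T0 mean of their strain. In A/J its T1 arrays read 6.20, 6.29, 5.95 and 6.14, against 7.06, 6.99, 6.94 and 6.86 at T0. In Balb/c they read 5.92, 5.80 and 6.07 at T1, against 6.92, 6.98 and 7.02 at T0. In C57BL/6J they read 5.69, 5.76, 5.82 and 5.67 at T1, against 6.94, 6.87, 6.92 and 6.86 at T0. The replicates of these strains lay close together and no T1 array reached a T0 array. In DBA/2J the values were 5.82, 5.79 and 5.45 at T1, against 6.40, 6.31 and 6.03 at T0. In 129X1/SvJ they were 5.90, 5.96 and 5.66 at T1, against 6.53, 6.58 and 6.40 at T0. Here too the groups did not overlap, but the T0 level was lower than in the other strains. Ikzf2 changed less, with a mean of 8.07 at T1 and 8.48 at T0 (-0.41 ± 0.05; 1.32-fold lower; adjusted p = 2.32e-08), and all 17 T1 arrays were below the T0 mean of their strain. It was called in A/J (-0.37), C57BL/6J (-0.62) and DBA/2J (-0.62), but not in Balb/c (-0.21, adjusted p = 0.154) or 129X1/SvJ (-0.21, adjusted p = 0.136), where T1 and T0 arrays overlapped. The difference in the Ikzf2 response between strains was itself not called (adjusted p = 0.196). Of the 3 other Ikaros family genes, Ikzf1 (Ikaros) fell by 0.27 on average (in C57BL/6J its means were 10.08 at T1 and 9.93 at T0) and Ikzf3 (Aiolos) fell by 0.44, while Ikzf5 had a difference of 0.02 (adjusted p = 0.694).

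Both ectoenzyme genes fell. Nt5e encodes CD73, which makes adenosine from AMP, and averaged 6.28 at T1 and 7.68 at T0 (-1.40 ± 0.09; 2.64-fold lower; adjusted p = 1.28e-14). In C57BL/6J the T1 arrays read 6.92, 6.73, 6.97 and 6.66, against 9.20, 9.07, 9.0 and 8.82 at T0. In A/J they read 6.96, 6.64, 6.57 and 5.97 at T1, against 7.93, 7.82, 7.28 and 7.60 at T0. In Balb/c they read 5.95, 7.0 and 6.04 at T1, against 7.32, 7.32 and 7.05 at T0. The C57BL/6J T0 arrays were the highest Nt5e values of the series, and the Balb/c T1 array at 7.0 is the one that stood apart. In DBA/2J the values were 5.80, 6.06 and 5.66 at T1, against 7.46, 7.19 and 7.24 at T0. In 129X1/SvJ they were 6.20, 5.47 and 5.94 at T1, against 7.26, 7.12 and 7.20 at T0. T1 and T0 arrays did not overlap in any of the 5 strains. The size of the fall differed between strains (adjusted p = 0.0201 for the interaction of strain and time), at -2.21 in C57BL/6J (4.61-fold lower), -1.46 in DBA/2J, -1.32 in 129X1/SvJ, -1.13 in A/J and -0.90 in Balb/c. Without C57BL/6J T0 replicate 1, or without C57BL/6J T1 replicate 4, the adjusted p of this difference was 0.0539 and 0.0517, with a range over strains of 1.25 both times in place of 1.31. Without Balb/c T1 replicate 2 the Balb/c fall was -1.24, the range was 1.08 and the difference was called (adjusted p = 0.0102), so the place of Balb/c below A/J in size rests on that array.

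Entpd1 encodes CD39, the enzyme that breaks ATP and ADP down to AMP and so feeds CD73. It averaged 5.66 at T1 and 6.49 at T0 (-0.82 ± 0.12; 1.77-fold lower; adjusted p = 5.18e-07), with all 17 T1 arrays below the T0 mean of their strain. In DBA/2J the arrays read 5.36, 5.37 and 5.35 at T1, against 6.13, 6.92 and 6.79 at T0. In 129X1/SvJ they read 5.78, 5.20 and 5.77 at T1, against 6.29, 6.14 and 7.30 at T0. The DBA/2J T1 arrays lay just above 5.327, the limit that a gene's highest group mean had to reach to be tested. In A/J the values were 5.74, 5.63, 6.07 and 5.82 at T1, against 6.25, 5.90, 6.54 and 6.94 at T0. In Balb/c they were 5.65, 5.85 and 6.05 at T1, against 6.15, 6.52 and 6.93 at T0. In C57BL/6J they were 5.43, 5.12, 6.31 and 6.01 at T1, against 6.11, 5.95, 6.70 and 6.49 at T0. Arrays overlapped in A/J and C57BL/6J. The calls within A/J (-0.59, adjusted p = 0.0463), Balb/c (-0.68, adjusted p = 0.0484) and C57BL/6J (-0.60, adjusted p = 0.0405) sat at the threshold and were lost on leaving out 1 array in 10, 18 and 4 of 34 fits, with adjusted p up to 0.188, 0.207 and 0.186. The call in 129X1/SvJ (-0.99) was lost without T0 replicate 4 (-0.63, adjusted p = 0.0762).

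Entpd1 varied between replicate arrays together with a myeloid marker list of 11 genes that includes Csf1r, Adgre1 and Lyz2. Over the 34 arrays, after each group's mean was subtracted, Entpd1 and the mean of the list correlated at 0.82, the highest of any member with that list (Foxp3 was at -0.50), and at 0.87 without Balb/c T1 replicate 2. Entpd1 also correlated with the dendritic (0.59), neutrophil (0.53), erythroid (0.48) and NK (0.35) lists. Without that array these values were 0.60, 0.56, 0.60 and 0.51. The points share RNA samples and array scaling, and the values are descriptions. The myeloid list itself ran from 5.77 to 7.08 at T1 and from 6.16 to 7.74 at T0, and its part in the fall of Entpd1 was not tested. The genes of this list did not move alike. Medians over arrays at T1 and T0 were 8.32 and 9.29 for Lyz2, a macrophage lysozyme. They were 6.89 and 8.35 for Mpeg1 and 5.39 and 6.65 for Itgam. Differences were smaller for Csf1r (6.87 and 7.14), Adgre1 (5.88 and 5.92), Cd68 (7.09 and 7.22) and Fcgr3 (4.93 and 5.18). The same held for C1qa (6.97 and 7.10), C1qb (6.45 and 6.50), C1qc (6.43 and 6.77) and Cd14 (5.98 and 5.89). Of the 16 other genes of ATP and adenosine handling 11 were tested, of which 2 rose and 4 fell (36% and 46.3% of all genes), with a median of 0.04, and 6 rose after the further quantile normalization. The adenosine carriers Slc29a1 (1.28) and Slc29a2 (1.09) rose, whereas adenosine kinase Adk (-1.63) and the Entpd1 relatives Entpd5 (-1.50) and Entpd4 (-0.30) fell.

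**Figure D2:**
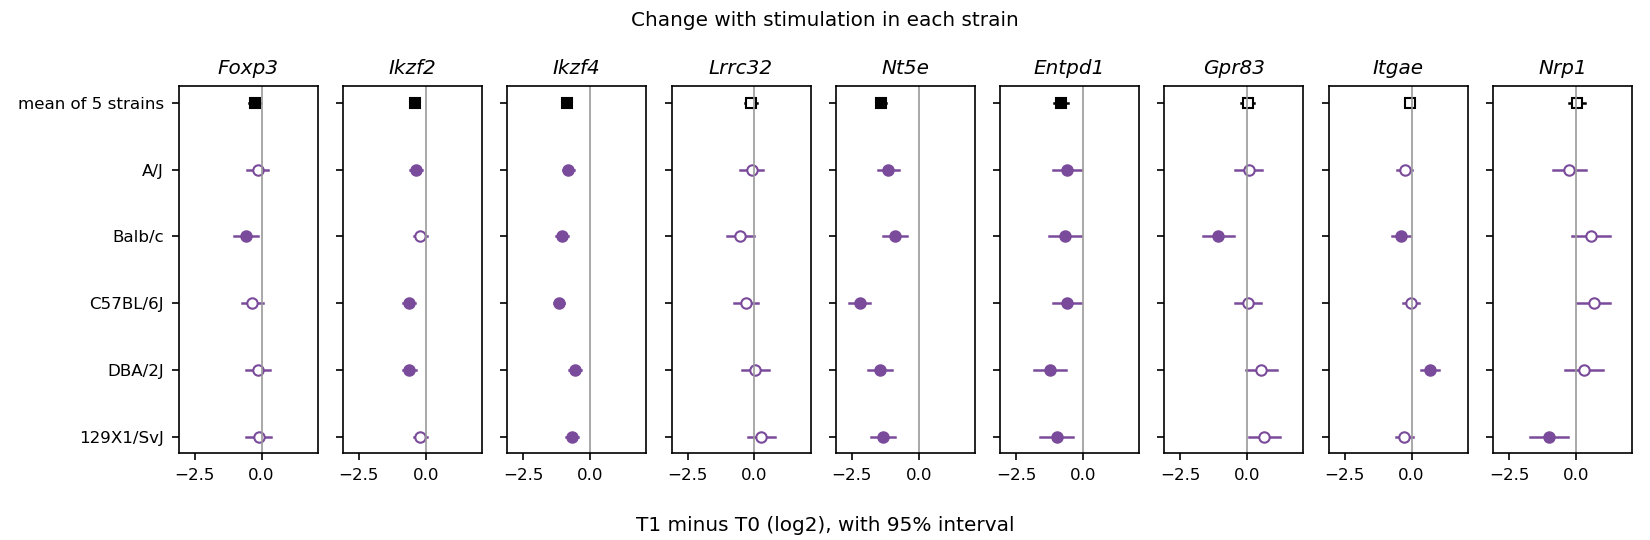
Change with stimulation (horizontal axis, T1 minus T0 in log2, with the 95% interval of the fit) for each of the 9 genes, as the mean of 5 strains (squares) and in each strain (circles), filled where the adjusted p is under 0.05. Nt5e and Ikzf4 are filled and left of 0 in every strain, while Gpr83, Itgae and Nrp1 lie on both sides of 0.

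Lrrc32 encodes GARP, which holds latent TGF-beta on the regulatory T cell surface. It averaged 7.69 at T1 and 7.82 at T0, a difference of -0.13 ± 0.10 that was not called (adjusted p = 0.244), and T1 and T0 arrays overlapped in all 5 strains. By strain the difference ran from -0.53 in Balb/c (adjusted p = 0.0693) to 0.25 in 129X1/SvJ (adjusted p = 0.402). In Balb/c the T1 arrays read 8.33, 6.83 and 7.84, against 8.28, 8.28 and 8.04 at T0, and the array at 6.83 is the one that stood apart. The Balb/c difference was -0.86 and called without T1 replicate 1 (adjusted p = 0.00376), and -0.11 without T1 replicate 2 (adjusted p = 0.695). Of the 14 other genes of latent TGF-beta docking and activation 10 were tested, of which 7 rose and 2 fell (36% and 46.3% of all genes), with a median of 0.33, and 1 fell after the further quantile normalization. The integrin chains that release TGF-beta, Itgav (2.32) and Itgb8 (2.26), and the protease Furin (1.95) rose, and the receptor Tgfbr2 fell by 1.01.

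Gpr83, a G protein-coupled receptor abundant on regulatory T cells, had like means at both times (6.38 at T1 and 6.35 at T0, a difference of 0.03 ± 0.12, adjusted p = 0.826). With the arrays numbered 3 to 5 alone the difference was 0.34 and called (adjusted p = 0.00444), and with those numbered 1 and 2 alone it was -0.24. In Balb/c the arrays read 6.86, 5.69 and 6.66 at T1, against 7.50, 7.85 and 7.12 at T0. In DBA/2J they read 6.02, 6.23 and 6.04 at T1, against 5.74, 5.42 and 5.55 at T0. In 129X1/SvJ they read 6.46, 6.47 and 6.68 at T1, against 5.89, 5.77 and 6.04 at T0. No T1 array overlapped a T0 array in these strains, and T1 was below T0 in Balb/c and above it in DBA/2J and 129X1/SvJ. Gpr83 fell in Balb/c by 1.09 (adjusted p = 0.00156). That change was -0.73 without T1 replicate 2 (adjusted p = 0.0328), and was not called without both Balb/c arrays numbered 2 (-0.55, adjusted p = 0.148) or with the arrays numbered 3 to 5 alone (-0.47, adjusted p = 0.19). The differences of 0.64 in 129X1/SvJ and 0.53 in DBA/2J were not called (adjusted p = 0.0558 and 0.109), but were after the further quantile normalization (0.84 and 0.67, adjusted p = 0.00853 and 0.0318). In A/J the values were 7.07, 6.97, 7.08 and 6.90 at T1, against 7.76, 7.37, 6.33 and 6.36 at T0. In C57BL/6J they were 6.03, 5.65, 6.15 and 5.59 at T1, against 6.38, 5.66, 5.62 and 5.65 at T0. The A/J T0 arrays fell into a high pair (replicates 1 and 2) and a low pair (replicates 4 and 5), on either side of the T1 arrays. The response differed between strains (range 1.72, adjusted p = 0.0257), but leaving out Balb/c T0 replicate 1, Balb/c T0 replicate 2 or Balb/c T1 replicate 2 gave adjusted p = 0.0608, 0.0989 and 0.0792, with ranges of 1.72, 1.55 and 1.37.

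Itgae encodes CD103, the integrin alpha chain that binds E-cadherin. In the main model it was the only member called in opposite directions in different strains. Such a pattern was seen for 0.78% of all genes tested. The trait was not particular to Itgae under the alternatives. Nrp1 had it without Balb/c T1 replicate 2 and with strain and number as a replicate block. After the further quantile normalization Nrp1 and Gpr83 had it and Itgae did not. In DBA/2J the arrays read 5.99, 5.82 and 5.58 at T1, against 5.33, 5.19 and 4.76 at T0. In Balb/c they read 5.95, 5.36 and 5.93 at T1, against 6.05, 6.35 and 6.02 at T0. Itgae rose in DBA/2J by 0.70 (1.63-fold, adjusted p = 0.000417), where the T0 mean of 5.09 was under 5.327. It fell in Balb/c by 0.40 (adjusted p = 0.0389), a call lost without T1 replicate 2 (-0.20, adjusted p = 0.323) or without T0 replicate 2 (-0.29, adjusted p = 0.187), and after the further quantile normalization (-0.27, adjusted p = 0.15). In A/J the values were 5.65, 5.80, 5.55 and 5.67 at T1, against 5.97, 6.08, 5.82 and 5.85 at T0. In C57BL/6J they were 5.31, 5.21, 5.66 and 5.72 at T1, against 5.58, 5.56, 5.49 and 5.39 at T0. In 129X1/SvJ they were 5.75, 5.42 and 5.42 at T1, against 5.96, 5.89 and 5.55 at T0. None of these was called, though every A/J T1 array lay below every A/J T0 array. The response differed between strains (range 1.10, adjusted p = 0.00777), and was called with any single array left out, most narrowly without DBA/2J T0 replicate 4 (range 0.93, adjusted p = 0.05).

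Nrp1, neuropilin-1, is a receptor for semaphorins and VEGF that marks thymus-derived regulatory T cells in mice, and its mean changed little (6.87 at T1 and 6.82 at T0, adjusted p = 0.735). In 129X1/SvJ the arrays read 6.12, 5.57 and 6.02 at T1, against 7.12, 6.89 and 6.75 at T0. In C57BL/6J they read 7.70, 7.13, 7.50 and 7.44 at T1, against 6.89, 6.87, 6.83 and 6.49 at T0. In Balb/c they read 6.17, 8.75 and 6.26 at T1, against 6.42, 6.76 and 6.32 at T0. Nrp1 fell in 129X1/SvJ without overlap, was higher at every T1 array than at any T0 array of C57BL/6J, and in Balb/c had 1 T1 array far above the rest, the one that stood apart. In DBA/2J the values were 7.98, 7.67 and 7.70 at T1, against 7.90, 7.26 and 7.29 at T0. In A/J they were 6.19, 6.26, 6.25 and 6.04 at T1, against 6.54, 6.51, 6.36 and 6.27 at T0. The changes were -1.02 in 129X1/SvJ (adjusted p = 0.0138; 0.0541 without its T0 replicate 1 and 0.0705 without its T1 replicate 2), 0.67 in C57BL/6J (adjusted p = 0.0529), 0.56 in Balb/c, 0.30 in DBA/2J and -0.24 in A/J. The difference between responses was not called with all arrays (range 1.69, adjusted p = 0.0852). Without Balb/c T1 replicate 2 it was (range 1.69, adjusted p = 3.30e-05), the Balb/c change was -0.28 (adjusted p = 0.207) and the rise in C57BL/6J was called (adjusted p = 0.000143). Without Balb/c T1 replicate 1 or 4 the adjusted p of the difference was 0.0177 and 0.0242, with ranges of 2.03 and 1.98, and the Balb/c change was called at 1.01 and 0.96 (adjusted p = 0.0168 and 0.025). Of the 13 integrin and neuropilin partners 10 were tested, of which 6 rose and 4 fell (36% and 46.3% of all genes), with a median of 0.19. The alpha4 integrin chain Itga4 (-2.24) and the neuropilin adaptor Gipc1 (-0.70) fell, while the ligands Vegfa (1.78) and Sema4a (0.67) and the second neuropilin Nrp2 (0.41) rose.

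Strain differences were common among the members. At T0 the F test over strains called 6 of 9 members, against 18.5% of all genes tested, and at T1 it called 6 of 9, against 31%. The response differed between strains for 4 of 9 (Ikzf4, Nt5e, Gpr83 and Itgae), against 6.92%. The members were chosen with earlier results of these data known, so these counts do not test whether such genes vary more than others. Within the arrays numbered 1 and 2 alone, the response differed for 0 members (4 at an unadjusted p under 0.05), and within those numbered 3 to 5 for 1, Nrp1 (6 unadjusted). At T0 the called genes were Gpr83 (range 1.92, adjusted p = 3.21e-06), Nt5e (1.83, 3.51e-08), Lrrc32 (1.10, 0.00516), Itgae (1.05, 5.73e-05), Ikzf4 (0.73, 2.65e-06) and Foxp3 (0.71, 0.0394), each given with its range in log2 and its adjusted p. At T1 they were Nrp1 (1.88, 0.000168), Gpr83 (1.15, 0.00595), Nt5e (0.98, 0.00128), Foxp3 (0.88, 0.0114), Ikzf2 (0.48, 0.00712) and Ikzf4 (0.46, 0.00387). Entpd1 was called at neither time (adjusted p = 0.929 at T0 and 0.57 at T1). Nrp1 at T0 was not called (1.06, adjusted p = 0.125), but was without Balb/c T1 replicate 2 (adjusted p = 3.11e-05), an array that enters this test through the shared estimate of the spread. The Foxp3 call at T0 was lost on leaving out A/J T0 replicate 1 or 2, Balb/c T0 replicate 1 or 2, C57BL/6J T0 replicate 2, 3 or 4, or DBA/2J T0 replicate 3 or 4 (adjusted p of 0.0508 to 0.14). The Ikzf4 response range of 0.60 (adjusted p = 0.0237) was 0.54, 0.55 and 0.50 without DBA/2J T1 replicate 2, DBA/2J T1 replicate 3 and DBA/2J T0 replicate 4, with adjusted p of 0.0584, 0.0566 and 0.0536, and 0.54 (adjusted p = 0.0611) after the further quantile normalization.

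The order of strains differed from gene to gene, and few neighbours in an order could be separated. C57BL/6J was highest for Nt5e at T0 (9.03 ± 0.16, SD, n = 4), above A/J (7.66 ± 0.29, n = 4) by 1.37 (adjusted p = 8.48e-06), and DBA/2J, Balb/c and 129X1/SvJ followed at 7.30, 7.23 and 7.19. For Foxp3 the same strain was lowest, at 7.15 ± 0.17 at T1 and 7.50 ± 0.39 at T0, while A/J led at T1 (8.04 ± 0.23) and Balb/c at T0 (8.21 ± 0.24, n = 3). A/J exceeded C57BL/6J for Foxp3 by 0.88 at T1 (adjusted p = 0.00285) and by 0.67 at T0 (adjusted p = 0.0277). Ikzf4 at T0 split into Balb/c, A/J and C57BL/6J at 6.98, 6.96 and 6.90, then 129X1/SvJ at 6.50 and DBA/2J at 6.24, with the step between C57BL/6J and 129X1/SvJ called (0.39, adjusted p = 0.0128). Gpr83 at T0 was high in Balb/c (7.49) and A/J (6.96) and lower in 129X1/SvJ, C57BL/6J and DBA/2J (5.90, 5.83 and 5.57), with the step between A/J and 129X1/SvJ called (1.05, adjusted p = 0.00949). These 3 were the only called steps among 72 pairs of neighbours over both times, with p adjusted over all genes and all 10 pairs of strains, and 0 of the 36 at T1 were called (4 at an unadjusted p under 0.05). Without Balb/c T1 replicate 2 the count was 7 and without Balb/c T1 replicate 1 it was 5. For Lrrc32 at T0, 129X1/SvJ (7.09 ± 0.25, n = 3) was below Balb/c, C57BL/6J and A/J, with Balb/c higher by 1.10 (adjusted p = 0.00342). For Itgae at T0, DBA/2J (5.09 ± 0.30, n = 3) was below Balb/c, A/J and 129X1/SvJ, with Balb/c higher by 1.05 (adjusted p = 3.71e-05). For Nrp1, DBA/2J was highest at both times, at 7.78 ± 0.17 at T1 and 7.48 ± 0.36 at T0 (n = 3), and at T1 it exceeded 129X1/SvJ by 1.88 (adjusted p = 0.000593). The mean of the stroma and endothelium markers (3 of 6 genes tested) was also highest in DBA/2J, at 6.84 to 7.0 at T1 and 7.67 to 7.75 at T0. In any other strain it was at most 6.57 at T1 and 6.91 at T0. At T0 most of the spread of this mean came from Stab2, which ran from 4.81 to 8.57 over the arrays. Pecam1 ran from 8.61 to 9.09 and Col1a1 from 5.82 to 6.44, while Cdh5, Kdr and Pdgfrb were not bright enough to be tested. The plasmacytoid dendritic cell list was also highest in DBA/2J at T0 (median array 7.99). Next came 129X1/SvJ (7.76), as for Nrp1 at T0. At T1 the median of this list was 6.27 in both strains. The part of either list in the Nrp1 order was not tested.

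Of 30 regulatory T cell receptors and effectors that activated T cells also use 29 were tested, of which 24 rose and 3 fell, where 36% of all genes tested rose and 46.3% fell. Their median was 0.73 beside -0.07 for all genes. This list was drawn up for use in activated T cells, with earlier results of these data known. Its counts are a description and do not test for enrichment. The cytokine Il10 (5.09), the protease Gzmb (4.00), the chemokine receptor Ccr8 (3.48) and the interleukin-2 receptor chain Il2ra (2.68) had the largest changes, and Tnfrsf9, the co-stimulatory receptor 4-1BB, rose by 1.28. Of 25 regulators of Foxp3 transcription, 12 rose and 11 fell, near the shares over all genes, with a median of 0.07, and the largest changes were the rises of the nuclear receptors Nr4a2 (3.34), Nr4a3 (2.56) and Nr4a1 (2.42) and of Irf4 (2.55). Of 18 genes listed as Foxp3 protein partners or related factors 17 were tested, of which 8 rose and 6 fell. Among them the methyltransferase Ezh2 rose (1.01), and Lef1 (-1.35), Ep300 (-1.10), Hdac1 (-0.96) and Gata1 (-0.37) fell. The inhibitor Id3 rose on average (0.36), but its response differed between strains (adjusted p = 9.19e-06), with means of 6.11 at T1 and 6.64 at T0 in DBA/2J and 6.59 at T1 and 6.82 at T0 in 129X1/SvJ. The counts for these lists, and for the other 4, were the same without Balb/c T1 replicate 2.

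**Figure D3:**
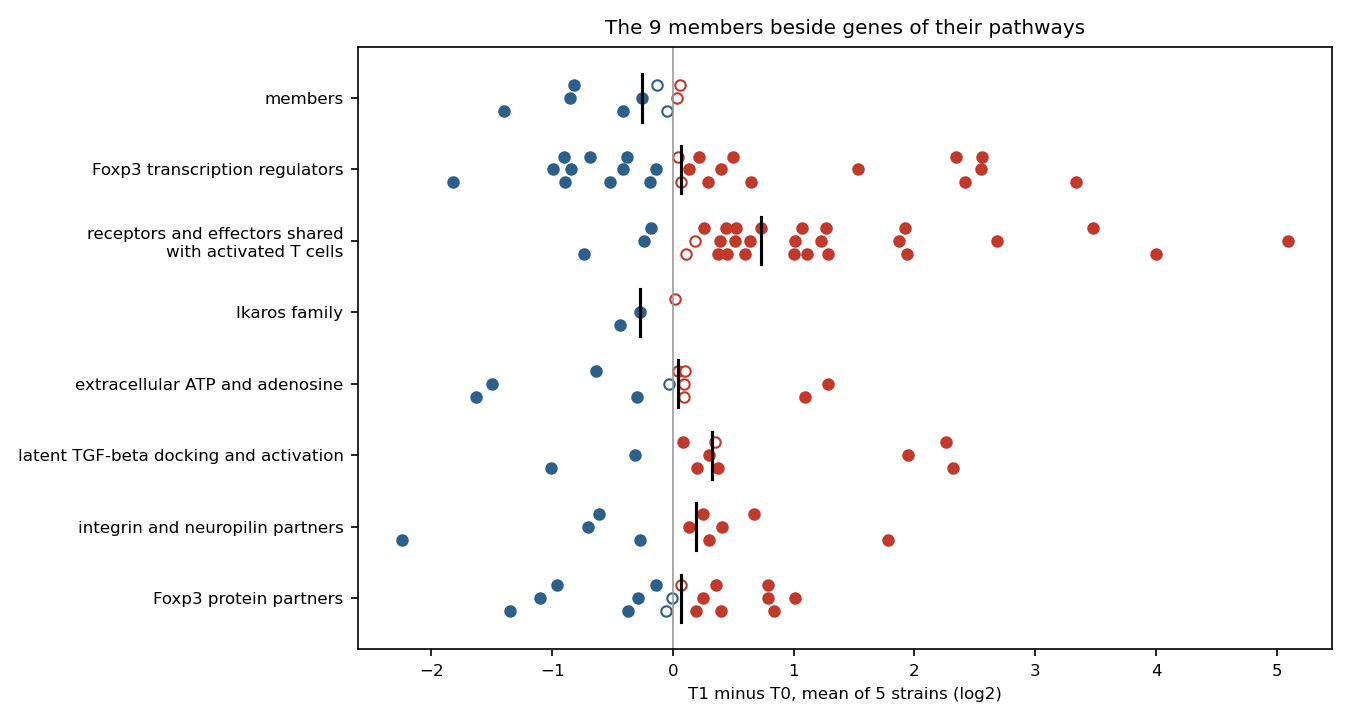
Change with stimulation (horizontal axis, T1 minus T0 in log2, mean of 5 strains) of the 9 members and of the tested genes of 7 related lists (rows), with red for positive and blue for negative differences, filled circles for an adjusted p under 0.05 and a black bar at each row's median. The member median is at -0.26 and that of the receptors and effectors shared with activated T cells at 0.73.

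After subtracting group means, Foxp3 correlated over the 34 arrays with Lrrc32 at 0.67, with Gpr83 at 0.63 and with Itgae at 0.51, but with Ikzf2 at 0.03 and with Entpd1 at -0.58. Lrrc32 and Gpr83 correlated at 0.65, and Nt5e and Nrp1 at 0.72. Without Balb/c T1 replicate 2, over 33 arrays, these were 0.52 and 0.58, while Foxp3 correlated with Lrrc32 at 0.74, with Gpr83 at 0.62 and with Itgae at 0.49. Other pairs moved further without it. Nrp1 went from 0.08 to 0.57 with Foxp3 and from -0.19 to 0.62 with Itgae. It also went from -0.43 to 0.41 with Lrrc32 and from -0.26 to 0.44 with Gpr83. Nt5e went from 0.29 to 0.49 with Foxp3 and from -0.07 to 0.47 with Lrrc32. Nrp1 correlated at -0.70 with the NK marker list, of which only Eomes and Gzma were tested. Balb/c T1 replicate 2 is lowest in that list, and without that array the value was -0.18. These are descriptions, since the arrays share their scaling and Foxp3, Lrrc32 and Gpr83 were all higher on arrays numbered 1 and 2 in A/J at T0. Same-numbered arrays of different strains deviated alike at T0, with a median correlation over the genes tested of 0.33 in 27 pairs, against -0.25 in 88 pairs with other numbers, and less so at T1 (0.11 and -0.04). The labels do not say what the numbers stand for.

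**Figure D4:**
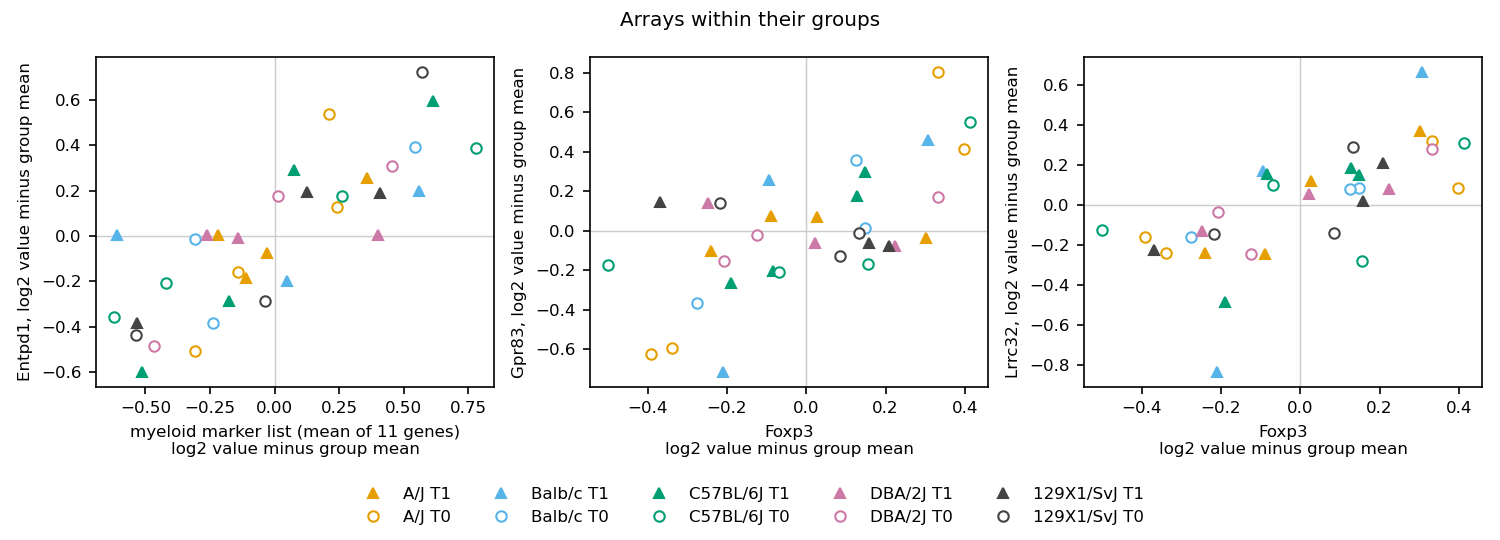
Deviation of each of the 34 arrays from its group mean (log2), for Entpd1 against the mean of 11 myeloid markers, and for Gpr83 and Lrrc32 against Foxp3, with triangles for T1, circles for T0 and a colour for each strain. Points rise together in all 3 panels, with correlations of 0.82, 0.63 and 0.67.

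The genes whose pattern was most like each member's were found by Pearson correlation among the 11413 tested genes, with unnamed transcripts left out. Over the 10 group means the closest were Tnfrsf14 for Foxp3 (0.92), Bcl2l13 for Ikzf2 (0.96), Plscr3 for Ikzf4 (0.98), Tgfb1i1 for Lrrc32 (0.95), Mfsd10 for Nt5e (0.96), Primpol for Entpd1 (0.99), Tspan4 for Gpr83 (0.89), Gpt for Itgae (0.86) and Bmp2k for Nrp1 (0.90). Over the 34 arrays minus their group means, Entpd1 was most like Ninj1 (0.89), Pla2g7 (0.88) and Clec4n (0.87). On the same measure Gpr83 was most like Adar (0.86), Tap1 (0.86) and Irf9 (0.85), and Nrp1 was most like Cd160, Trmt13 and Thap1, each at 0.88. Without Balb/c T1 replicate 2 the values for Nrp1 were 0.38 with Cd160, 0.49 with Trmt13 and 0.59 with Thap1, so its likeness to them rests largely on that array. The points share strains and array scaling, and none of the genes named here is another member.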

How the data were processed

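Arrays were processed by the authors with RMA, per the submitters' processing notes, and what was deposited is a table of log2 intensities with a value for each probe set. Not given in the sources used here: RMA's version, how probe sets were defined, and the annotation's genome build. Array medians ran from 5.28 to 5.39. The number of arrays limits the precision.

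Of 35556 probe sets, 21789 had 1 gene symbol, 1621 had several and 12146 had none. Each gene was represented by its brightest probe set over all arrays, and kept when its highest group mean reached 5.327, the median of all values. limma 3.58.1 (R 4.3.3) fitted 1 model of 10 groups over 34 arrays: T1 minus T0 per strain and as the mean of 5 strains, F tests over strains at T1, at T0 and on the response, and 10 pairs of strains per time. Benjamini-Hochberg adjustment ran over 11413 genes (for pairs of strains, over genes and pairs), and a gene was called under 0.05. SE are moderated. The fit was tested on simulated data.

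The members, the gene lists and the naming rule (per list, up to 4 genes with the largest mean change and up to 2 with the largest range at T0, and for each member the genes most alike) were chosen with earlier results of these data known. Markers covered 11 cell types. Alternatives were the filter, normalization, probe set mean, intensity trend, replicate block, each array left out, and, chosen after seeing the data, arrays of some numbers alone Balb/c number 2 left out, and correlations without Balb/c T1 replicate 2. Promoter sequences came from RefSeq, GRCm38.p6. The number in the labels was checked as a pairing: over 17 pairs of same-numbered T1 and T0 arrays the correlation of deviations ran from -0.078 to 0.474 (median 0.258) and exceeded 0.1 in 14. Not every pair exceeded it and the labels do not explain the numbers, so the main model has no replicate block. A pairing is not excluded, and calls that changed with a block are given below.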

Additional observations from a re-analysis of the deposited data

Results flagged for a closer look

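Among 36 sets of 4 arrays (9 genes in A/J and C57BL/6J at both times), 3 had an array far from the other 3 by Dixon's criterion of 0.829, and chance gives about 1 in 20. Lrrc32 read 7.36 on C57BL/6J T1 replicate 4 (ratio of gap to range 0.942). Gpr83 read 6.38 on C57BL/6J T0 replicate 1 (0.944). Nrp1 read 6.49 on C57BL/6J T0 replicate 4 (0.860).

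The change with stimulation differed between strains by the interaction test of limma for 4 of 9 members, against 6.92% of all genes tested. The members were chosen with earlier results of these data known. On leaving out single arrays the calls for Ikzf4, Nt5e and Gpr83 could be lost (adjusted p up to 0.0584, 0.0539 and 0.0989). The range of the strain changes was 0.60 for Ikzf4 (adjusted p = 0.0237), 1.31 for Nt5e (adjusted p = 0.0201), 1.72 for Gpr83 (adjusted p = 0.0257) and 1.10 for Itgae (adjusted p = 0.00777).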

How the results depend on the processing

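Of 3564 member values under the alternatives, 3378 kept their direction and their side of the threshold, 105 lost a call, 45 gained one and 36 changed sign. No value that changed sign was called before or after. After a further quantile normalization the mean change was 0.02 for Lrrc32 and 0.02 for Itgae, and the change was 0.04 for Lrrc32 in A/J and 0.04 for Foxp3 in DBA/2J. With arrays numbered 1 and 2 alone, Gpr83 changed by -0.24 on average, -0.54 in A/J and -0.18 in C57BL/6J, and Lrrc32 by -0.17 in DBA/2J. The same arrays called 984 genes between strains at T0, 779 at T1 (1 member) and 112 for the response (0 members by limma at an adjusted p under 0.05, 4 unadjusted), and 3 members in DBA/2J. With arrays numbered 3 to 5 alone, the changes were 0.11 for Itgae on average, 0.25 for Itgae in C57BL/6J, 0.07 for Foxp3 in A/J and -0.06 for Nrp1 in Balb/c. These arrays called 923 genes at T0, 1764 at T1, 175 for the response (1 member), 2878 for stimulation in Balb/c (3 members) and 4148 in 129X1/SvJ. Without both Balb/c arrays numbered 2, the mean change was 0.01 for Itgae and -0.09 for Nrp1, that of Nrp1 in Balb/c was -0.16, Balb/c had 2 called members, and 7 steps between neighbouring strains were called. Each subset also had fewer arrays, and the cause of these differences was not tested. With single arrays left out, ranges were -0.22 to 0.07 for Foxp3 in 129X1/SvJ, -0.23 to 0.04 for Foxp3 in DBA/2J, -0.02 to 0.10 for the mean change of Gpr83, -0.16 to 0.31 for Gpr83 in A/J, -0.07 to 0.21 for Gpr83 in C57BL/6J, -0.11 to 0.06 for Itgae in C57BL/6J, -0.22 to 0.0 for Lrrc32 in A/J, -0.09 to 0.17 for Lrrc32 in DBA/2J, -0.11 to 0.14 for the mean change of Nrp1, -0.28 to 1.01 for Nrp1 in Balb/c, 3 to 7 called members in Balb/c and 2 to 7 steps between neighbours.

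With strain and number as a replicate block, Foxp3 in C57BL/6J (-0.35, adjusted p = 0.0134), Gpr83 in 129X1/SvJ (0.64, adjusted p = 0.0489), Lrrc32 in Balb/c (-0.53, adjusted p = 0.0283), Nrp1 in C57BL/6J (0.67, adjusted p = 0.0149) and the Nrp1 response between strains (range 1.69, adjusted p = 0.0168) became called, and no other member call changed. With the number shared across strains as a replicate block, 5 steps between neighbouring strains were called and Entpd1 differed between strains at T1 (0.49, adjusted p = 0.0485), and the first 4 of these results were called again. Same-numbered arrays correlated best with each other in 12 of 17 pairs, a hint from the data and not from the design.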
